A study of Rattus norvegicus with 60 samples.

Results

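Livers of male F344/N rats given N,N-dimethyl-p-toluidine (DMPT) at 120 mg/kg per day were compared with livers of rats given the corn oil vehicle alone. DMPT is an aromatic amine added to acrylic cements for bone and teeth so that they harden faster. The comparison takes the 5 arrays labelled DMPT 120 mg/kg and the 5 arrays labelled DMPT vehicle, 10 of the 60 arrays of the series, and all 31042 probe sets that are not controls. The series holds 12 groups of 5 Affymetrix 3′ expression arrays: vehicle, 1, 6, 20, 60 and 120 mg/kg for DMPT, and the same for p-toluidine, which is the amine without the methyl groups on the nitrogen. All rats were 5 to 6 weeks old at the start, ate the same diet and were gavaged in 2.5 ml of corn oil per kg on 5 consecutive days, and RNA came from the left lateral liver lobe. Only the DMPT doses are listed in the protocols, and those of the p-toluidine arrays rest on their sample labels. The rats were housed 2 per cage, and the labels tie no array to an animal or cage, so each p-value reflects spread among samples that may share a cage, and no more. Since the tissue was taken in bulk, fewer cells of a type and less RNA per cell cannot be told apart.

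As background, the liver handles an aromatic amine in stages. Cytochrome P450 and flavin monooxygenases oxidize the nitrogen or the ring. Reductases act on quinones and carbonyls, transferases attach glutathione, glucuronate or sulfate, and export pumps move the conjugates out. The transcription factor NRF2 is held inactive by KEAP1 until electrophiles or oxidants modify KEAP1. It then binds antioxidant response elements next to many genes of conjugation, quinone reduction and glutathione supply. A different sensor, the aryl hydrocarbon receptor, drives Cyp1a1. Adult hepatocytes rarely divide, and much of their transcription serves secreted plasma proteins and male- or female-specific enzymes set by growth hormone pulses. This describes adult liver, whereas the rats here were 5 to 6 weeks old at the start.

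The core of the antioxidant response element, TGACNNNGC on either strand, was looked for in a window around the annotated start of each gene (RefSeq, assembly GRCr8). The window ran from 250 bases before the start to 50 bases after it, and only matches before the start are printed. The stretches shown belong to 5 genes that rose at 120 mg/kg: Gstp1, the gene with the largest rise of the comparison, the transferase Gsta3, the peroxidase Gpx2, the glutathione synthesis subunit Gclm and the NADPH source Me1. Capitals mark the match, and each stretch is written 5′ to 3′ on the strand of its gene.
Gstp1: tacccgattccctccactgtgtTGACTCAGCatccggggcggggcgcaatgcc
Gsta3: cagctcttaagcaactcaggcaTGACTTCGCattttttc
Gpx2: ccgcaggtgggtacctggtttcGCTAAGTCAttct
Gclm: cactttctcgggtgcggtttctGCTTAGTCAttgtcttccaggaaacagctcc
Me1: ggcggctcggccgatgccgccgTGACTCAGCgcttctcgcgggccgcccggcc
The Gstp1 stretch lies at chr1:210769736-210769788 on the minus strand, with the match starting 61 bases before the gene start. The Gsta3 stretch lies at chr9:31154950-31154988 on the plus strand (match 17 bases before the start) and the Gpx2 stretch at chr6:101230034-101230068 on the minus strand (13 bases). The Gclm stretch lies at chr2:213031941-213031993 on the plus strand (172 bases) and the Me1 stretch at chr8:96540381-96540433 on the minus strand (167 bases). In Gpx2 and Gclm the element reads on the strand opposite to the gene. A window was at hand for 11733 of the 14217 named genes. Of these windows 14.4% held the core, and 13.3% of the windows of the 637 genes that rose and had one. Among glutathione S-transferases 6 of 18 windows (33.3%) held it, and among NRF2 target genes 9 of 39 (23.1%). Windows of Gstt3, Gsta4, Gstm1, Akr7a3, Akr1b8, Nqo1, Ephx1, Txn1, Aldh1a1 and Pgd, which also rose, hold no such letters in the 250 bases before the start. A match is a description of the sequence only.

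Array values are RMA values taken to be on the log2 scale, changes are log2 differences (120 mg/kg minus vehicle) ± standard error of the limma fit, means are ± SD, and each group has 5 arrays. Called genes are those whose adjusted p did not exceed 0.05 (limma, Benjamini-Hochberg over all probe sets), and "rose" and "fell" are used of called genes only. Interquartile ranges of the arrays ran from 3.26 to 3.34 for vehicle and from 3.09 to 3.38 at 120 mg/kg (two-sided exact permutation p = 0.286, or 0.0476 without dosed array 3). Dosed arrays 2 and 5, at 3.09 and 3.14, lay below a fence of 3.16 drawn over the 30 DMPT arrays. They are called the narrow arrays here, together with 1 array at 6 mg/kg and 2 at 60 mg/kg. The 3′ minus 5′ difference of the beta-actin control probe sets, a gauge of RNA integrity, was 1.48 ± 0.15 in vehicle and 1.28 ± 0.08 at 120 mg/kg (two-sided exact permutation p = 0.0159, 0.0476 adjusted over 3 gauges). The Gapdh and hexokinase gauges had exact permutation p-values of 0.127 and 0.444. The part of these array properties in the changes was not tested, beyond the values given without the narrow arrays. Albumin (Alb), the defining hepatocyte product, lay near the top of the scale, at 13.80 to 13.85 on the vehicle arrays and 13.80 to 13.87 on the dosed arrays.

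Of 31042 probe sets 3043 were called (9.8%), 1326 higher (4.27%) and 1717 lower (5.53%). Of 14217 genes represented by a probe set each, 1816 were called, 12.8% of those tested. They divide into 755 rises (5.31%) and 1061 falls (7.46%). Most changes were small: 1504 of the called genes (82.8%) changed less than 1.5-fold. The median was 0.40 over all 755 rises and −0.34 over all 1061 falls, beside −0.00128 over all genes. The large changes ran mostly upward, with 193 rises and 119 falls of at least 1.5-fold and 51 rises and 33 falls of at least 2-fold. The 5 dosed arrays stood clear of the 5 vehicle arrays in 1626 genes (11.4%), above them in 668 (4.7%) and below in 958 (6.74%). The first principal component of the 10 arrays held 35.5% of the variance and placed the vehicle arrays between −27.9 and −13.1 and the dosed arrays between 13.7 and 23.7. The balance of directions depends on the arrays kept: without the narrow arrays 1495 genes were called, 755 up (5.31%) and 740 down (5.21%), so that 50.5% of calls were rises in place of 41.6%, and 606 rises and 663 falls were shared with the full set. With the arrays brought to equal quantiles the split was 989 up and 1006 down (49.6% rises).

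**Figure D1:**
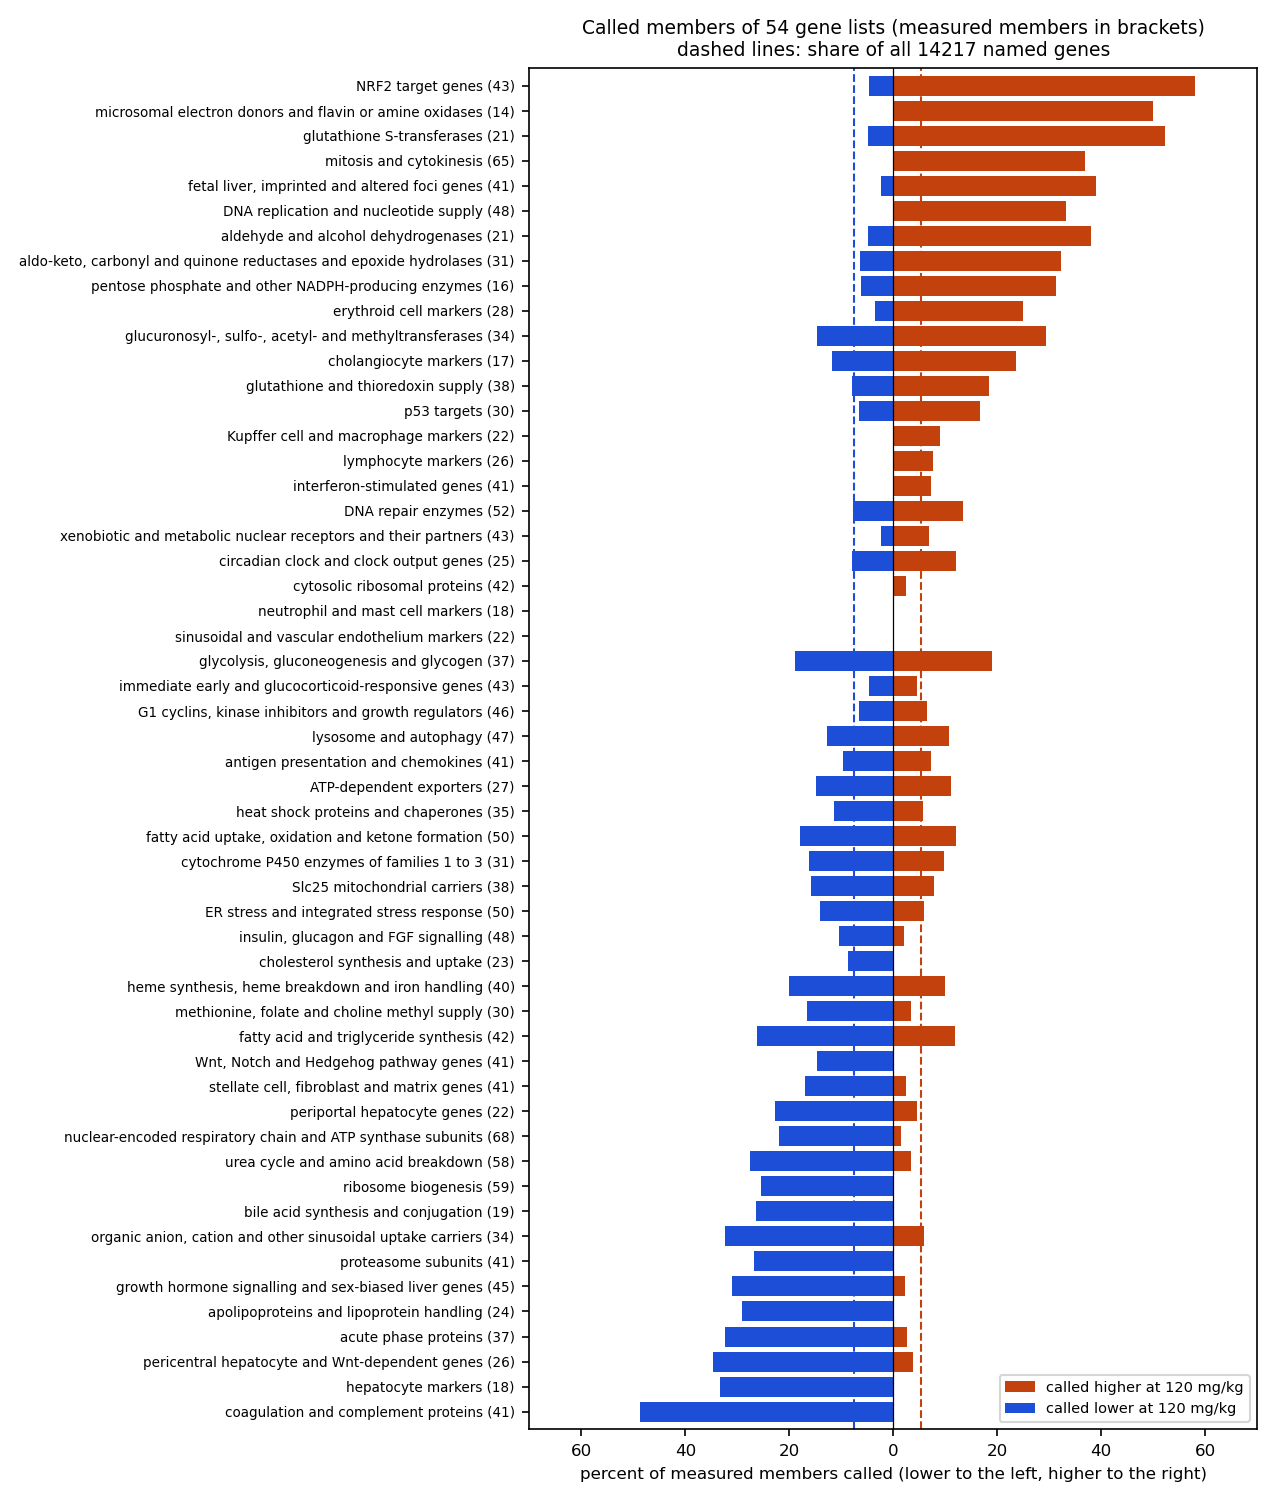
Share of measured members called higher (right, orange) or lower (left, blue) at 120 mg/kg of DMPT for 54 of the 56 gene lists (markers of pancreatic acinar cells and of mesothelium or gut epithelium are not drawn), the number of measured members in brackets, with dashed lines at the shares of all named genes (5.31% higher, 7.46% lower). NRF2 target genes, glutathione S-transferases and electron donors reach furthest to the right, and coagulation and complement proteins furthest to the left.

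Genes of glutathione conjugation and of carbonyl and quinone reduction led the largest rises. Of 43 NRF2 target genes measured, 25 rose and 2 fell, with a median change of 0.38, and the mean level of the list was 7.45 to 7.73 on vehicle arrays and 8.32 to 8.63 on dosed arrays. The message of NRF2 itself (Nfe2l2, named after its values were seen) had a change of −0.01 ± 0.11 and was not called. Of 21 glutathione S-transferases, which join glutathione to electrophiles, 11 rose and 1 fell, with a median of 0.28. Gstp1, the pi-class enzyme that is low in normal adult rat hepatocytes, read 5.65, 6.37, 5.72, 6.53 and 6.30 on vehicle arrays 1 to 5. At 120 mg/kg it read 12.23, 12.05, 11.93, 12.10 and 11.80, and its change was 5.91 ± 0.34 (95% interval 5.21 to 6.61). The dosed arrays of this gene lay close together, far above every vehicle array.

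Gsta3, an alpha-class transferase active on aflatoxin epoxide, read 6.05, 4.97, 7.82, 6.91 and 7.82 in vehicle and 9.82, 9.63, 9.06, 9.56 and 8.98 at 120 mg/kg, a change of 2.69 ± 0.39 (adjusted p = 1.75e-05). Its vehicle arrays were the scattered ones, and the lowest of them was array 2. Gstt3, of the theta class, read 7.48, 7.61, 8.27, 8.25 and 8.59 in vehicle and 10.61, 10.89, 10.13, 10.72 and 10.18 after dosing (2.47 ± 0.21). Gstm1, a mu-class enzyme already abundant in vehicle at 11.27 to 11.49, reached 12.34 to 12.45, a change of 1.00 ± 0.08 with little spread on either side. Gsta4, which conjugates the lipid peroxidation product hydroxynonenal, changed by 1.13 ± 0.10, and the microsomal transferase Mgst2 by 0.77 ± 0.07. In each of these genes every dosed array was above every vehicle array.

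Of 31 aldo-keto, carbonyl and quinone reductases and epoxide hydrolases, 10 rose and 2 fell (median 0.19). Akr7a3, which reduces aflatoxin dialdehyde, read 7.94, 7.68, 8.46, 8.58 and 8.05 in vehicle and 12.03, 12.11, 11.51, 11.85 and 11.65 at 120 mg/kg (3.69 ± 0.22). Nqo1, which reduces quinones to hydroquinones, read 5.90, 5.93, 6.45, 6.15 and 6.34 in vehicle and 9.59, 9.27, 8.63, 8.62 and 8.26 after dosing (2.72 ± 0.18). Ptgr1, a reductase of unsaturated ketones, went from 8.58 to 8.81 in vehicle to 10.59 to 11.13, and had the smallest standard error among the largest rises (2.16 ± 0.11, adjusted p = 3.45e-15). Ephx1, the microsomal epoxide hydrolase, went from 10.03 to 10.31 in vehicle to 11.07 to 11.60 (1.18 ± 0.11). Akr1b8, an aldo-keto reductase related to human AKR1B10, behaved less evenly. It read 3.66 to 4.19 on all vehicle arrays but 9.16, 7.11, 5.17, 7.72 and 5.66 on dosed arrays 1 to 5, a wide scatter among the dosed arrays and a change of 3.08 ± 0.39 (adjusted p = 1.91e-06).

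**Figure D2:**
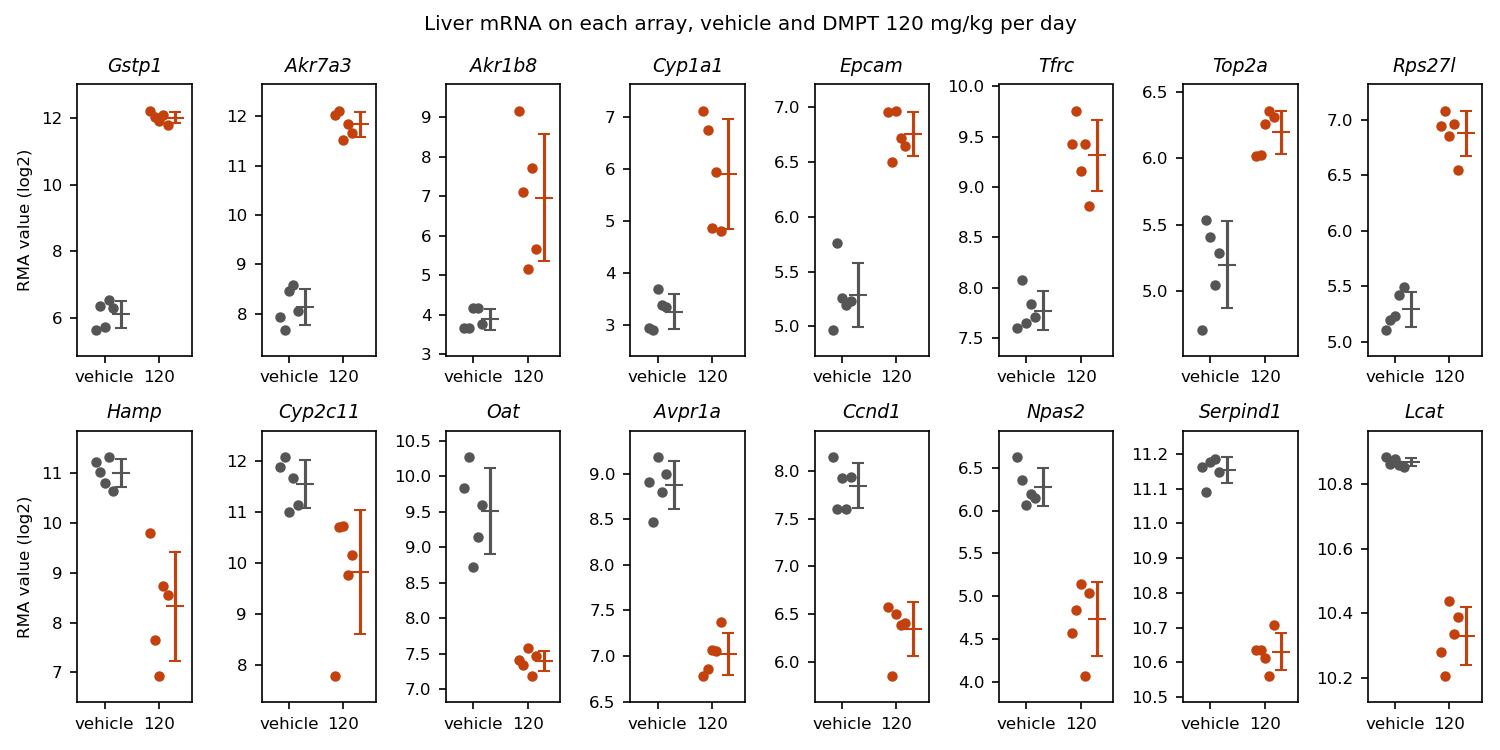
RMA values (log2) of 16 genes on each of the 5 vehicle arrays (grey) and 5 arrays at 120 mg/kg (orange), with mean and SD beside the points, each panel with its own axis. The groups are separated in all 16 genes shown, widely and tightly for Gstp1 and with dosed arrays from 5.17 to 9.16 for Akr1b8.

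The enzymes that supply reduced glutathione and NADPH changed in both directions. Of 38 genes of glutathione and thioredoxin supply, 7 rose and 3 fell, with a median of 0.01. Gpx2, a glutathione peroxidase better known from gut epithelium, read 3.77, 3.69, 4.81, 4.37 and 4.56 in vehicle and 7.31, 7.11, 6.71, 6.76 and 6.42 at 120 mg/kg (2.62 ± 0.20). Gpx1, the main liver peroxidase, fell (−0.42 ± 0.06, adjusted p = 1.25e-05). Gsr, the glutathione reductase, went from 6.74 to 7.24 in vehicle to 7.65 to 8.25 (0.99 ± 0.13). Gclm, the modifier subunit of the enzyme that makes gamma-glutamylcysteine, changed by 0.76 ± 0.09 and thioredoxin (Txn1) by 0.41 ± 0.06. Of 16 NADPH-producing enzymes, 5 rose and 1 fell (median 0.12), and the rises numbered 3 without dosed array 3 and without vehicle array 1. Pgd, of the pentose phosphate pathway, changed by 0.67 ± 0.12 and its vehicle array 2 and dosed array 2 both read 7.25. Me1, the cytosolic malic enzyme, changed by 0.42 ± 0.09, while H6pd, which makes NADPH inside the endoplasmic reticulum, fell (−0.47 ± 0.09).

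Aldehyde and alcohol dehydrogenases moved with them: 8 of 21 rose and 1 fell (median 0.09). Adh7, an alcohol dehydrogenase of the stomach and of retinol oxidation, went from 4.90 to 5.94 in vehicle to 6.53 to 7.57 (1.51 ± 0.20). Aldh1a1, the retinal dehydrogenase, went from 9.86 to 10.80 in vehicle to 11.50 to 11.82 (1.24 ± 0.13). Both had separated groups. Adh1c changed by 0.77 ± 0.11 and the folate enzyme Aldh1l1 by 0.68 ± 0.08.

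The cytochromes P450 of families 1 to 3 divided, with 3 rises and 5 falls among 31 and a median of −0.09. Cyp1a1, which oxidizes aromatic hydrocarbons and amines, read 2.93, 2.90, 3.69, 3.38 and 3.35 in vehicle and 7.13, 6.76, 4.87, 5.95 and 4.80 at 120 mg/kg, a change of 2.65 ± 0.35 (adjusted p = 3.29e-06). Dosed arrays 1, 2 and 4 were the highest for Cyp1a1, and the same arrays were the highest for Akr1b8. Cyp1a2, the N-oxidizing enzyme that answers to the same receptor and is abundant in normal liver, fell: it read 10.55 to 10.97 in vehicle and 10.01 to 10.35 after dosing (−0.63 ± 0.11, adjusted p = 0.000254). The receptor's own message Ahr read 4.17 to 4.49 in vehicle and 3.92, 3.00, 3.96, 3.97 and 3.94 after dosing, and was not called (−0.53 ± 0.19, adjusted p = 0.0753). Cyp3a9 fell by 1.56 ± 0.27, to 2.18 to 2.54 on every dosed array, and Cyp2c22 fell by 0.70 ± 0.13. Among 14 microsomal electron donors and flavin or amine oxidases, 7 rose (median 0.22), or 3 without dosed array 1. Aox1, aldehyde oxidase, read 9.41 to 9.80 in vehicle and 10.44 to 10.86 after dosing (0.98 ± 0.10). Fmo1, a flavin monooxygenase that oxidizes tertiary amines, read 8.82 to 9.41 and then 9.68 to 9.82 (0.57 ± 0.11), and Pgrmc1, a heme protein that binds P450 enzymes, changed by 0.47 ± 0.06.

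Glucuronosyl-, sulfo-, acetyl- and methyltransferases changed in both directions: 10 of 34 rose and 5 fell (median 0.10). The largest rises were those of a pair of glucuronosyltransferases. Ugt2b7 read 1.99 to 2.31 on the vehicle arrays and 4.51, 3.70, 4.97, 3.95 and 3.89 on the dosed arrays (2.08 ± 0.18), and Ugt2b1 went from 9.14 to 10.18 to 10.92 to 11.19 (1.26 ± 0.13). Genes of this family are close copies of each other, so the probe sets may not tell them apart. The glycine conjugation enzyme Acsm2 changed by 1.24 ± 0.20. The falls included Inmt, a methyltransferase of amines (5.54 to 6.45 in vehicle, 3.64, 5.31, 4.42, 3.94 and 4.45 after dosing, −1.57 ± 0.31), and the sulfotransferase Sult1c3 (−1.05 ± 0.18).

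Transport genes changed on both faces of the hepatocyte. Abcc3, a basolateral export pump for conjugates, read 4.16, 3.76, 6.23, 4.73 and 5.56 in vehicle and 6.99, 7.06, 6.96, 6.79 and 6.82 at 120 mg/kg (2.04 ± 0.28, adjusted p = 6.56e-06), so that the vehicle arrays were scattered and the dosed arrays were not. Of 27 ATP-dependent exporters 3 rose (11.1% beside 5.31% of all genes) and 4 fell (14.8% beside 7.46%). Their median was −0.05, or 0.04 without the narrow arrays. The falls numbered 2 without the narrow arrays or without vehicle array 1, 2 or 5, and at most 1 without dosed array 1, 4 or 5 or vehicle array 3. Abcb1a, which pumps out many drugs, was among the rises (0.66 ± 0.17, with overlapping groups). Of 34 sinusoidal uptake carriers, 2 rose and 11 fell (median −0.15), with 7 falls without dosed array 1, without vehicle array 1 and without the narrow arrays. Slc6a6, the taurine carrier, read 7.04, 7.83, 6.80, 6.78 and 6.98 in vehicle and 4.97, 5.52, 5.34, 5.03 and 5.41 after dosing (−1.83 ± 0.24). Slc34a2, a sodium phosphate carrier, read 8.17, 7.30, 6.21, 6.45 and 6.88, and then 4.99, 4.01, 6.13, 5.42 and 5.50 (−1.79 ± 0.30), so its highest dosed array nearly met its lowest vehicle array. Slco1a4, an organic anion carrier, fell (−0.69 ± 0.12). The phosphate-family carriers Slc17a1 and Slc17a3, which carry organic anions such as urate, were the 2 that rose (0.72 ± 0.09 and 0.71 ± 0.11).

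Genes of fatty acid metabolism changed in both directions, while the called genes of bile acid synthesis and of lipoproteins were all lower. Of 42 genes of fatty acid and triglyceride synthesis, 5 rose and 11 fell (median −0.12), with 7 falls without dosed array 2 and 3 rises with all probe sets of a gene averaged. Scd, the stearoyl-CoA desaturase, read 8.47, 10.63, 6.39, 7.81 and 6.30 in vehicle and 4.96, 5.48, 5.48, 4.81 and 5.47 at 120 mg/kg (−2.68 ± 0.56, adjusted p = 0.00155). Its vehicle arrays were widely spread, and its dosed arrays were close together and all below the lowest vehicle array. Pklr, liver pyruvate kinase, fell (−0.85 ± 0.14). Cidea, a lipid droplet protein low in lean liver, went the other way, from 4.19, 4.51, 4.97, 5.10 and 5.24 to 6.31, 6.81, 5.95, 6.84 and 6.16 (1.61 ± 0.20). In fatty acid uptake and oxidation 6 of 50 rose and 9 fell (median 0.01). The thioesterase Acot1 was among the rises (1.74 ± 0.49, adjusted p = 0.0200), but overlapped between groups and was not called without dosed array 5 (adjusted p = 0.0573), vehicle array 2 (0.0603), vehicle array 4 (0.0656) or the narrow arrays (0.0514).

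Among bile acid genes 5 of 19 fell, but 11 of the 19 had a change above 0 and the median was 0.05. Slc27a5, which activates bile acids for conjugation, read 10.57, 10.49, 10.98, 10.87 and 10.90 in vehicle and 9.78, 10.03, 9.66, 9.92 and 9.74 after dosing (−0.94 ± 0.13). Fgfr4, the receptor through which the gut hormone FGF15 restrains bile acid synthesis, went from 6.45 to 6.64 to 5.83 to 6.13 (−0.60 ± 0.08). Of 24 apolipoprotein and lipoprotein genes 7 fell (median −0.08). Apoa4 read 9.26, 9.69, 8.97, 10.10 and 8.49 in vehicle and 7.48, 7.80, 8.42, 8.09 and 7.34 after dosing (−1.47 ± 0.24). Lcat, the plasma enzyme that esterifies cholesterol, showed a small but very even fall, from 10.85 to 10.88 in vehicle to 10.21 to 10.44 (−0.54 ± 0.06, adjusted p = 4.12e-07). Pemt, which methylates phosphatidylethanolamine to phosphatidylcholine, went from 9.76 to 9.91 to 9.21 to 9.58 (−0.45 ± 0.06).

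Of 58 genes of the urea cycle and amino acid breakdown, 2 rose and 16 fell (median −0.09), 11 of them without the narrow arrays. Oat, ornithine aminotransferase, which sits in the hepatocytes around the central vein, read 9.84, 10.27, 8.72, 9.14 and 9.59 in vehicle and 7.41, 7.34, 7.58, 7.18 and 7.46 at 120 mg/kg (−2.11 ± 0.20, adjusted p = 1.05e-08). Kynu, of tryptophan breakdown, fell (−0.65 ± 0.08), as did Agxt, which detoxifies glyoxylate (−0.50 ± 0.11), while the alanine aminotransferase Gpt rose (0.57 ± 0.13). Among 30 genes of methionine, folate and choline methyl supply 1 rose and 5 fell, or 3 fell without dosed array 1. The rise was that of Sms, spermine synthase, from 4.71 to 4.92 in vehicle to 5.44 to 5.91 (0.93 ± 0.12).

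Of 37 genes of glycolysis, gluconeogenesis and glycogen 7 rose and 7 fell (median 0.03). Gckr, which holds glucokinase in the nucleus, went from 8.43 to 8.95 in vehicle to 7.82 to 8.37 (−0.49 ± 0.09), and Gys2, the liver glycogen synthase, from 6.49 to 6.85 to 6.03 to 6.42 (−0.42 ± 0.10). Pck2, the mitochondrial enzyme that makes phosphoenolpyruvate, went from 5.54 to 5.84 to 6.00 to 6.33 (0.50 ± 0.11). The groups did not overlap in any of the 3. Of 48 genes of insulin, glucagon and FGF signalling 5 fell (10.4% beside 7.46% of all genes) and 1 rose (2.1% beside 5.31%). The falls numbered 3 without dosed array 2. Among them was the kinase Akt2 (−0.35 ± 0.06), whose further probe sets had changes of −0.19, −0.06 and 0.09. Fgf1 rose, from 3.54 to 4.32 in vehicle to 4.53 to 5.01 (0.73 ± 0.14), with changes of 0.24 and 0.10 in its further probe sets.

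Many genes of secreted plasma proteins fell. Of 41 coagulation and complement genes 20 fell, the largest share of members falling among the 56 lists (48.8% beside 7.46% of all genes), with a median of −0.19, and 16 fell without the narrow arrays. The list's mean level was 9.17 to 9.30 on vehicle arrays and 8.93 to 9.13 on dosed arrays. Serpind1, heparin cofactor II, read 11.16, 11.09, 11.18, 11.19 and 11.15 in vehicle and 10.64, 10.64, 10.61, 10.56 and 10.71 after dosing (−0.52 ± 0.06, adjusted p = 2.14e-07). The groups were thus far apart beside the spread within either, although the fall was only 1.44-fold. C1s, a complement protease, went from 10.42 to 10.55 to 9.82 to 10.08 (−0.51 ± 0.08), and the lectin Mbl2, the complement subunit C8g and the regulator C4bpb changed by −0.42 ± 0.06, −0.40 ± 0.07 and −0.40 ± 0.08.

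Among 37 acute phase proteins 1 rose (0 without dosed array 2) and 12 fell (median −0.12). Apcs, serum amyloid P, went from 11.44 to 11.62 in vehicle to 10.74 to 11.04 (−0.65 ± 0.07). A2m, alpha-2-macroglobulin, which soars in the inflamed rat, read 6.00, 5.31, 7.22, 6.58 and 5.75 in vehicle and 4.65, 4.81, 4.96, 4.07 and 3.87 after dosing (−1.70 ± 0.34). Hepatocyte markers were lower too: 6 of 18 fell (median −0.12), 3 without the narrow arrays, and their mean level was 11.62 to 11.78 on vehicle arrays and 11.48 to 11.56 on dosed arrays. Hnf4a, the transcription factor that maintains hepatocyte identity, went from 9.64 to 9.94 to 9.16 to 9.35 (−0.52 ± 0.09, adjusted p = 0.000176), and both subunits of the asialoglycoprotein receptor fell, with changes of −0.38 ± 0.07 for Asgr2 and −0.30 ± 0.08 for Asgr1 (adjusted p = 0.0604 for Asgr1 without the narrow arrays). Alb (0.01 ± 0.05), Ttr (0.05 ± 0.05), Apoa1 (0.11 ± 0.07) and Cyp2e1 (0.01 ± 0.07) were not called.

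Male-specific liver genes that follow pulsed growth hormone held the largest falls of the comparison. Of 45 genes of growth hormone signalling and sex-biased expression 1 rose and 14 fell (median −0.16), 9 of them without the narrow arrays. Mup5, a urinary lipocalin, read 8.20, 8.84, 4.25, 6.62 and 6.40 in vehicle and 2.80, 2.88, 3.10, 2.93 and 4.00 at 120 mg/kg (−3.72 ± 0.76). Obp3, of the same family, changed by −3.53 ± 0.92, with adjusted p-values of 0.0115 over all arrays, 0.0528 without vehicle array 2 and 0.0602 without the narrow arrays, and family members may share these probe sets. Cyp2c11, the male steroid hydroxylase, read 11.87, 12.07, 11.66 and 11.14 on vehicle arrays 1, 2, 4 and 5, close to 11 on vehicle array 3, and 7.78, 10.71, 10.72, 9.76 and 10.15 after dosing (−1.73 ± 0.39, adjusted p = 0.00353). Dosed array 1 was by far the lowest, and all dosed arrays were below all vehicle arrays. Cyp2c12, the female counterpart, had a change of 1.33 ± 0.45 that was not called (adjusted p = 0.0589). It was called without dosed array 3 (0.0323), without dosed array 5 (0.0325) and without vehicle array 3 (0.00576), which read 10.08 beside 7.61 to 8.18 on the other vehicle arrays. Igf1, the growth factor that the hormone draws from the liver, went from 11.75 to 12.18 to 11.29 to 11.59 (−0.51 ± 0.09), and its carrier Igfals changed by −0.80 ± 0.20.

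Iron genes moved in opposite directions. Hamp, hepcidin, the hormone that shuts iron export from gut and macrophages, read 11.22, 11.01, 10.79, 11.32 and 10.64 in vehicle and 9.79, 7.64, 6.92, 8.73 and 8.55 at 120 mg/kg (−2.67 ± 0.45, adjusted p = 0.000121). Every dosed array was lower than every vehicle array, by an amount that varied widely between dosed arrays. Smad7, an inhibitor and target of the BMP signal that drives hepcidin, fell (−0.83 ± 0.12). Tfrc, the transferrin receptor, read 7.59, 8.07, 7.65, 7.84 and 7.71 in vehicle and 9.43, 9.76, 9.16, 9.43 and 8.81 after dosing (1.54 ± 0.19), and Hmox1, heme oxygenase, went from 5.73 to 6.04 to 6.33 to 7.08 (0.80 ± 0.12). In the whole list of heme synthesis, heme breakdown and iron handling 4 of 40 rose and 8 fell (median −0.06), 5 of them without the narrow arrays.

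Tfrc is also an erythroid gene. Of 28 erythroid markers 7 rose and 1 fell (median 0.12), with 4 rises without dosed array 4 or vehicle array 2. Ahsp, the chaperone of alpha globin, changed by 0.64 ± 0.13 and the nuclear factor Hemgn by 0.40 ± 0.10. The defining markers did not pass: Hbb (0.28 ± 0.15), Alas2 (0.26 ± 0.17) and Slc4a1 (0.34 ± 0.19) had adjusted p-values of 0.280, 0.422 and 0.291. The mean level of the erythroid list was 4.21 to 4.39 on vehicle arrays and 4.38 to 4.54 on dosed arrays. The part of blood or blood-forming cells in the iron genes was not tested.

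Part of the cell division genes rose at 120 mg/kg. Of 65 genes of mitosis and cytokinesis 24 rose, 36.9% beside 5.31% of all genes, 62 had a change above 0, and the median was 0.58. Of 48 genes of DNA replication and nucleotide supply 16 rose, all 48 had a change above 0, and the median was 0.31. Top2a, the topoisomerase that untangles chromosomes, read 4.71, 5.54, 5.41, 5.05 and 5.29 in vehicle and 6.02, 6.03, 6.26, 6.36 and 6.31 after dosing (0.99 ± 0.18, adjusted p = 0.000379). Melk, a mitotic kinase, went from 2.73 to 3.18 to 3.85 to 4.26 (1.07 ± 0.16), Racgap1, of the cleavage furrow, changed by 1.00 ± 0.24 and the kinesin Kif15 by 0.91 ± 0.21. Mki67, the antigen of the Ki-67 stain, changed by 0.92 ± 0.27 (adjusted p = 0.0285), and its call was lost without dosed array 3, 4 or 5, without vehicle array 1 or 4 (adjusted p up to 0.105), and without the narrow arrays (0.0578).

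In the replication list, Uhrf1, which guides maintenance methylation, changed by 0.93 ± 0.21, the repressor E2f8 by 0.86 ± 0.15, the flap nuclease Fen1 by 0.65 ± 0.12 and the helicase cofactor Gins1 by 0.64 ± 0.13. Mcm6, a subunit of the replicative helicase, changed by 0.89 ± 0.23 (adjusted p = 0.0111, and 0.0546 without vehicle array 1). The mean level of the mitosis list on vehicle arrays 1 to 5 was 4.29, 4.92, 4.90, 4.70 and 4.89, and on dosed arrays 5.10, 5.01, 5.59, 5.31 and 5.47. Vehicle array 1 was the lowest and dosed arrays 1 and 2 were close to the highest vehicle arrays. The count of mitosis genes that rose ranged from 11 to 28 over the single arrays left out: it was 12, 13 and 12 without dosed arrays 3, 4 and 5, and 11 and 13 without vehicle arrays 1 and 4. For replication genes it ranged from 8 to 18, with 8 without vehicle array 1. That array also had the lowest mean of 22 Kupffer cell and macrophage markers, 6.10 beside 6.53 to 6.57 on the other vehicle arrays and 6.34 to 6.72 on dosed arrays. Among the vehicle arrays it was the lowest as well for endothelial markers (4.87 beside 5.23 to 5.35), for stellate cell and matrix genes (5.27 beside 5.46 to 5.57) and for lymphocyte markers (2.88 beside 3.07 to 3.13). The dosed arrays read 5.02 to 5.23, 5.14 to 5.53 and 3.06 to 3.20 for these lists. The part of dividing cells other than hepatocytes was not tested.

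Letters in the promoters of these lists were counted over every member with a window, called or not. The shares therefore describe the lists and not the dose. The sequence TTTGAA on either strand, known as the cell cycle genes homology region, was in 33 of 56 mitosis windows (58.9%), in 3 of 40 replication windows (7.5%) and in 12.3% of all windows. CCAAT, on either strand, was in 42 of 56 (75%), in 24 of 40 (60.0%) and in 37.3% of all. TTTGGCGC, a strong form of the E2F site, was in 1 of 56 mitosis windows, in 9 of 40 replication windows (22.5%) and in 0.801% of all. In the 637 windows of all genes that rose, the shares were 15.1% for TTTGAA, 41.4% for CCAAT and 1.73% for TTTGGCGC. As above, a match only describes the sequence. Top2a, Mki67 and Kif15 show the first pattern and Mcm6 and Gins1 the last, with each match in capitals and the CCAAT matches, mostly read as ATTGG, marked as well.
Top2a: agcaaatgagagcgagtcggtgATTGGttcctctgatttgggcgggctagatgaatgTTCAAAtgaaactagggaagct
Mki67: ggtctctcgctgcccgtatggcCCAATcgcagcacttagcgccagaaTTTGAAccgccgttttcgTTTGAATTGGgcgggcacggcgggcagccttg
Kif15: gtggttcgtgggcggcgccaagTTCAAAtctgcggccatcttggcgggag
Mcm6: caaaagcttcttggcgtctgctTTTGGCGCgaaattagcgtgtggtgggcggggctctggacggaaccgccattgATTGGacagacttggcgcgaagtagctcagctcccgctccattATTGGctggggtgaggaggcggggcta
Gins1: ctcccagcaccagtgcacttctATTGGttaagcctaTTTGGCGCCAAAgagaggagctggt
These stretches come from RefSeq, assembly GRCr8, at chr10:84473094-84473172 for Top2a, chr1:199952661-199952757 for Mki67 and chr13:42404369-42404513 for Mcm6, all on the minus strand, and at chr8:131479336-131479385 for Kif15 and chr3:160184859-160184919 for Gins1 on the plus strand. TTTGAA starts 22 bases before the gene start in Top2a, 117 and 99 in Mki67 and 46 in Kif15. TTTGGCGC starts 139 bases before the start in Mcm6 and at 25 in Gins1, where it overlaps a match on the other strand, and in Mki67 the second TTTGAA overlaps a CCAAT read on the other strand.

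**Figure D3:**
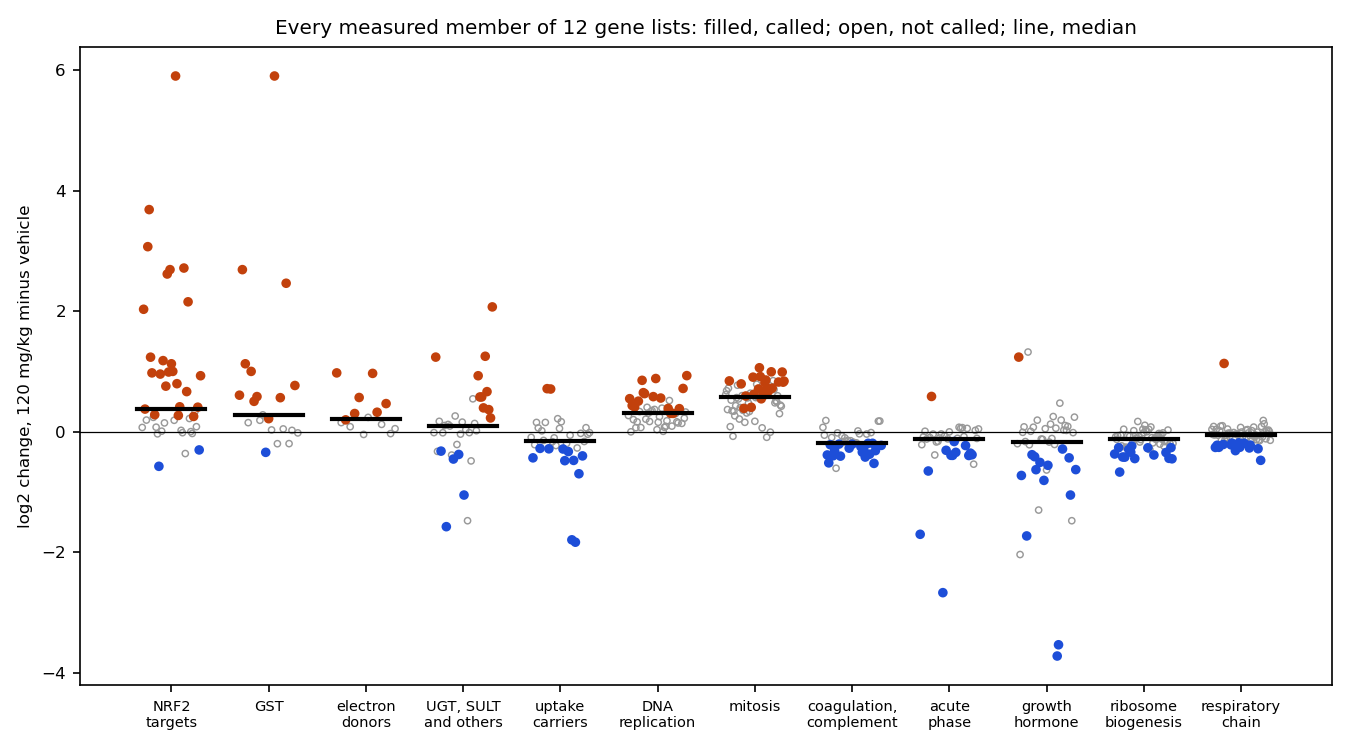
Log2 change (120 mg/kg minus vehicle) of every measured member of 12 gene lists, filled where called (orange higher, blue lower) and open where not, with a bar at each list's median. Replication and mitosis genes lie almost wholly above 0 without exceeding 1.07, while NRF2 targets reach 5.91 from a median of 0.38.

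Regulators of the entry into the cell cycle included large falls. Of 46 G1 cyclins, kinase inhibitors and growth regulators 3 fell (6 with all probe sets of a gene averaged) and 3 rose. The rises numbered at most 1 without dosed array 1, dosed array 4 or vehicle array 1. Falls and rises were each 6.5% of the list, near the shares of all genes (7.46% fell and 5.31% rose). Ccnd1, cyclin D1, read 8.15, 7.60, 7.93, 7.61 and 7.94 in vehicle and 6.57, 5.85, 6.50, 6.38 and 6.40 at 120 mg/kg (−1.51 ± 0.19, adjusted p = 1.99e-06), and its further probe sets, with changes of −1.25 and −1.32, were called too. Inhba, the activin subunit that restrains hepatocyte growth, went from 7.42 to 7.97 to 5.93 to 6.40 (−1.50 ± 0.15). Cdkn1a, the p21 inhibitor, and Mdm2, both p53 targets named after their values were seen, were not called (0.15 ± 0.15 and 0.12 ± 0.10). Of 30 p53 targets 5 rose (16.7% beside 5.31% of all genes) and 2 fell (6.7% beside 7.46%). Their median was 0.09, and 3 rose without dosed array 1. Rps27l, a ribosomal protein paralog induced by p53, read 5.11, 5.20, 5.24, 5.42 and 5.49 in vehicle and 6.94, 7.08, 6.85, 6.96 and 6.55 after dosing (1.58 ± 0.20), and the death receptor Fas changed by 0.61 ± 0.11. Of 52 DNA repair enzymes 7 rose (13.5% beside 5.31% of all genes) and 4 fell (7.7% beside 7.46%). The rises numbered 2 without vehicle array 1 or 5, and 4 without vehicle array 4, without dosed array 1, 2, 4 or 5 or without the narrow arrays, which left 2 falls. Xrcc5, of double-strand end joining, changed by 0.40 ± 0.08.

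Genes of the stress and clock lists were called in both directions, with several shares near those of all genes (5.31% rose and 7.46% fell). Rises and falls made up 6.0% and 14.0% of the endoplasmic reticulum and integrated stress list. They made up 5.7% and 11.4% of the heat shock list and 12.0% and 8.0% of the clock list. Of 50 genes of endoplasmic reticulum and integrated stress 3 rose and 7 fell (median −0.05). Without dosed array 1 or vehicle array 1 the falls numbered 3, without dosed array 2, vehicle array 3, vehicle array 4 or the narrow arrays 4, and with equal quantiles 5 genes rose. The falls include Atf5, a factor of amino acid stress (−0.86 ± 0.18, with overlapping groups). Changes within this list ran from −0.86 to 1.52, so its largest change was upward. Of 35 heat shock proteins and chaperones 2 rose and 4 fell (2 without dosed array 5 or vehicle array 3), among them the regulator Hsf1 (−0.52 ± 0.10) and the hormone receptor cochaperone Fkbp4 (−0.50 ± 0.09). Of 25 clock genes 3 rose (5 with equal quantiles) and 2 fell, both falls on the activating arm: Npas2 read 6.63, 6.36, 6.07, 6.19 and 6.15 in vehicle and 4.57, 4.84, 5.14, 4.06 and 5.03 after dosing (−1.55 ± 0.15), and its partner Bmal1 changed by −0.44 ± 0.09. The output factor Hlf rose (0.51 ± 0.11). The hours at which livers were taken are not in the labels, so the part of the time of day was not tested.

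Genes of ribosome assembly, protein breakdown and respiration had many small falls. Of 59 ribosome biogenesis genes 15 fell (median −0.12), 9 without vehicle array 3. Ddx21, a nucleolar helicase, went from 7.16 to 7.73 to 6.62 to 7.07 (−0.67 ± 0.11), and the rRNA methyltransferase Fbl changed by −0.42 ± 0.08. Of 42 cytosolic ribosomal proteins only Rpl30 was called, and its rise (0.37 ± 0.10, adjusted p = 0.0128) was not called without dosed array 2 (0.0573) or without the narrow arrays (0.0572). Of 41 proteasome subunits 11 fell (median −0.13), or 7, 6 and 7 without dosed array 5, vehicle array 3 and vehicle array 4. Psmd7, which was among the falls, read 7.84 to 7.92 in vehicle and 7.50 to 7.69 after dosing (−0.30 ± 0.06). Of 68 nuclear-encoded respiratory chain and ATP synthase subunits 1 rose and 15 fell (median −0.06). The count of falls was 8 without dosed array 1, dosed array 5 or vehicle array 4, 7 without vehicle array 2 and 7 without the narrow arrays. The rise was that of Cox5a, a subunit of cytochrome oxidase, from 4.91, 4.81, 5.05, 5.34 and 5.25 to 6.10, 6.47, 6.44, 6.18 and 5.84 (1.14 ± 0.21), while the largest fall was that of Ndufv3 (−0.47 ± 0.07).

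Position in the lobule and other cell types were gauged by markers. Of 26 genes of hepatocytes around the central vein, many of them dependent on Wnt, 1 rose and 9 fell (median −0.26). Avpr1a, the vasopressin receptor, read 8.47 to 9.18 in vehicle and 6.78, 6.85, 7.07, 7.06 and 7.37 at 120 mg/kg (−1.85 ± 0.16), and Gulo, of vitamin C synthesis, changed by −0.57 ± 0.08. Aldh1a1 was the member that rose, and Cyp2e1, a defining enzyme of that zone, was not called. Of 22 periportal genes 1 rose (0 without dosed array 1) and 5 fell (median −0.01). Of 41 Wnt, Notch and Hedgehog pathway genes 6 fell (3 without dosed array 2), led by the co-receptor Lrp5 (−0.81 ± 0.12).

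Epcam, a surface protein of bile duct and progenitor cells, read 4.97, 5.76, 5.26, 5.20 and 5.23 in vehicle and 6.95, 6.50, 6.96, 6.72 and 6.64 after dosing (1.47 ± 0.13, adjusted p = 3.76e-09). Of 17 duct markers, Epcam among them, 4 rose (23.5% beside 5.31% of all genes) and 2 fell, with a median of 0.07, or −0.05 without the narrow arrays. The list's mean level was 4.15 to 4.22 on vehicle arrays and 4.22 to 4.54 on dosed arrays, and the defining duct keratins Krt19 (0.07 ± 0.14) and Krt7 (−0.10 ± 0.10) were near the bottom of the scale and not called. Genes known from fetal liver and from altered foci of treated rat liver rose in 16 of 41 cases and fell in 1 (median 0.12), with much of that list shared with the NRF2 targets. Car2, a carbonic anhydrase on that list, read 6.24, 5.90, 6.33, 6.31 and 6.35 in vehicle and 9.30, 8.38, 8.02, 8.89 and 8.30 after dosing (2.35 ± 0.17).

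Of 41 stellate cell, fibroblast and matrix genes 1 rose (0 without dosed array 2) and 7 fell (median −0.14). The falls numbered 11 without vehicle array 1. Pdgfrb, the receptor of growth factor on these cells, went from 4.19 to 4.65 to 3.52 to 3.95 (−0.72 ± 0.11), while its further probe sets had changes of 0.02 and 0.05. Of 41 interferon-stimulated genes 3 rose (7.3%, near the 5.31% of all genes, with a median of 0.02). Among them were the exonuclease Isg20 (0.73 ± 0.11) and Stat2 (0.32 ± 0.07). Of 41 genes of antigen presentation and chemokines 3 rose (7.3%) and 4 fell (9.8%, beside 7.46% of all genes), with a median of 0.02. The falls numbered 1 without dosed array 2, vehicle array 2 or 5 or the narrow arrays, and 2 without dosed array 1 or 5, without vehicle array 3 or 4, or with the replicate number as a block. Ccl2, which draws in monocytes, read 2.10, 2.31, 2.25, 2.58 and 2.49 in vehicle and 3.98, 3.40, 4.10, 3.04 and 2.34 after dosing (1.03 ± 0.26, adjusted p = 0.00854), so dosed array 5 lay within the vehicle range. Cxcl12, made by stromal and endothelial cells, went from 9.56 to 9.86 to 8.53 to 9.22 (−0.70 ± 0.10), with changes of −0.46 and −0.55 in its further probe sets. At most 2 of 22 Kupffer cell and macrophage markers (9.1%, median 0.02) and at most 2 of 26 lymphocyte markers (7.7%, median 0.07) were called higher. The share of all genes called higher was 5.31%. Of 22 endothelial and 18 neutrophil and mast cell markers 0 were called with limma, while 1 endothelial marker was higher and 3 lower, and 2 neutrophil markers higher, at an unadjusted p under 0.05. No other tool was run on these markers.

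Some of the largest changes lay outside these lists. Isyna1, which makes inositol phosphate from glucose phosphate, read 4.27, 4.91, 4.02, 4.33 and 4.44 in vehicle and 6.21, 6.04, 6.20, 6.14 and 6.16 at 120 mg/kg (1.76 ± 0.13). Ttc39a went from the bottom of the scale, 1.58 to 1.87, to 3.14 to 3.97 (1.82 ± 0.15). Both were evenly higher on all dosed arrays. Serpinb9b, of the serine protease inhibitors, read 8.30, 6.28, 8.14, 6.50 and 7.46 in vehicle and 6.05, 4.79, 4.91, 5.11 and 5.82 after dosing (95% interval of the change −2.76 to −1.25), and Cyfip2, of an actin-regulating complex, went from 3.85 to 4.76 to 2.69 to 2.87 (−1.41 ± 0.14). Neither overlapped between groups.

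The change from 60 to 120 mg/kg, which uses no vehicle array, was called in 35 of 14217 genes (0.246%), 29 higher (0.204%) and 6 lower (0.0422%). The differences (120 minus 60 mg/kg) were led by Akr1b8 at 2.73 ± 0.39, Cyp1a1 at 1.69 ± 0.35, Car2 at 1.51 ± 0.17, Nqo1 at 1.36 ± 0.18, Akr7a3 at 1.34 ± 0.22, Gpx2 at 1.10 ± 0.20, Slc66a3 at 0.93 ± 0.15 and Ptgr1 at 0.91 ± 0.11. Most of the 8 are reductases, oxidases or NRF2 targets. Of the 6 lower genes, Npas2 (−0.91 ± 0.15) and Fhit (−0.69 ± 0.07), a dinucleotide hydrolase, had the largest differences. At this step 54 probe sets were called (0.174%), 40 higher (0.129%) and 14 lower (0.0451%). The count was 24 without dosed array 1, 29 and 35 without arrays 3 and 1 at 60 mg/kg, 25 without the narrow arrays and 14 with only these 10 arrays fitted.

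The other doses share the vehicle arrays with this comparison, so their changes are given side by side and not as support. Gstp1 had changes of 0.33, 1.52, 4.16, 5.48 and 5.91 at 1, 6, 20, 60 and 120 mg/kg. Gstt3, Gsta3 and Abcc3 had reached 1.76, 1.40 and 1.64 at 20 mg/kg. Akr1b8 had changes of −0.05, 0.13, 0.18 and 0.35 below the top dose and 3.08 at it, and Car2 0.00, −0.35, 0.01 and 0.84 before 2.35. Hamp, Oat, Ccnd1 and Avpr1a had changes of −1.37, −1.14, −0.81 and −0.83 at 20 mg/kg. At 6 mg/kg 30 genes were called (0.211%), 11 higher (0.0774%) and 19 lower (0.134%). The 20 mg/kg dose gave 473 called genes (3.33%), 247 higher (1.74%) and 226 lower (1.59%), and the 60 mg/kg dose 1040 (7.32%), 345 higher (2.43%) and 695 lower (4.89%). The median of the mitosis list was −0.30, −0.50, −0.42, 0.27 and 0.58 over the 5 doses, and that of the replication list −0.13, −0.18, −0.20, 0.06 and 0.31, so both lay below the vehicle level up to 20 mg/kg. NRF2 targets had medians of 0.09, 0.10, 0.19, 0.30 and 0.38, with 3, 12, 21 and 25 rises at 6, 20, 60 and 120 mg/kg.

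**Figure D4:**
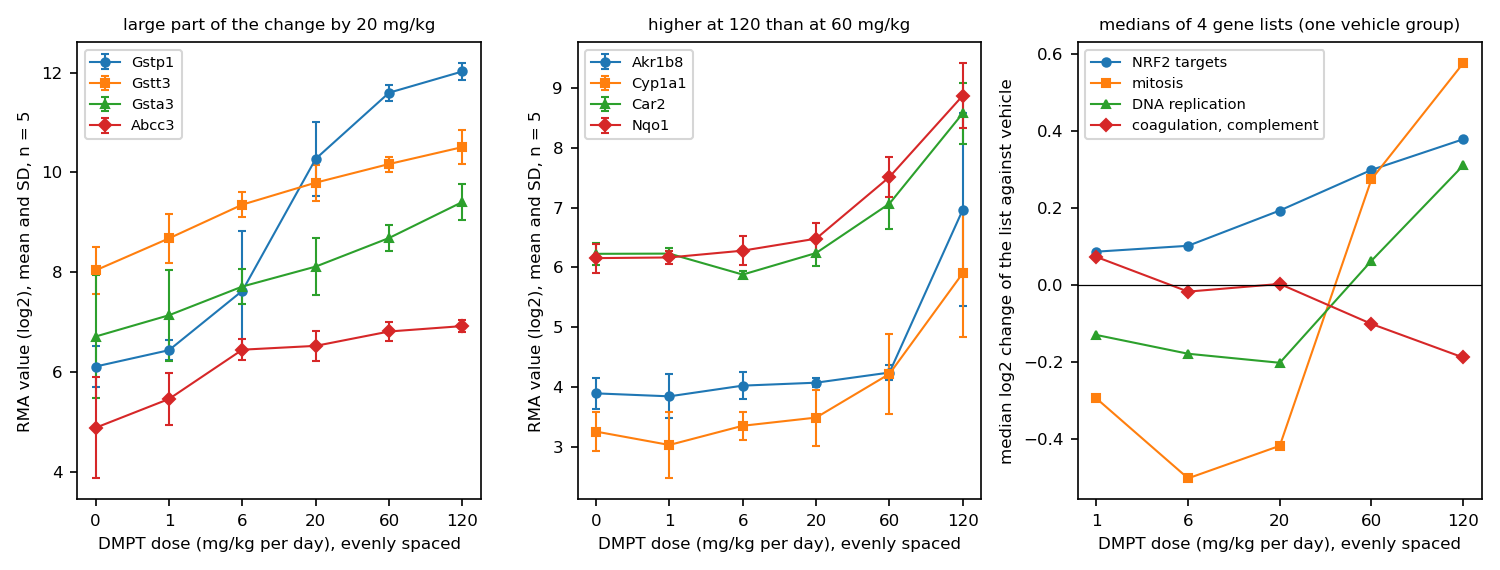
RMA values (log2, mean and SD of 5 arrays) of 4 genes with a large change by 20 mg/kg (left) and 4 genes higher at 120 than at 60 mg/kg (middle), and medians of the log2 change against the shared vehicle group for 4 gene lists (right), over the DMPT doses. Akr1b8 stays near 4 up to 60 mg/kg and reaches 6.96 at 120 mg/kg, and the mitosis median crosses 0 between 20 and 60 mg/kg.

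The response to 120 mg/kg of DMPT was also set against the response to 120 mg/kg of p-toluidine, each against its own vehicle arrays. Array medians differ between the chemicals, at 3.53 to 3.61 for DMPT and 2.73 to 2.81 for p-toluidine, so normalization was taken to be separate for each, and responses and not levels were compared. At p-toluidine 120 mg/kg 2101 genes were called against its vehicle (14.8%), 1116 higher (7.85%) and 985 lower (6.93%). The difference between the responses (DMPT minus p-toluidine) was called for 2 of 31042 probe sets (0.00644%), or 2 of 14217 genes (0.0141%), both higher. Both belong to the Cyp3a family, the P450 enzymes of drug and steroid oxidation. Cyp3a2 had a response of −0.38 ± 0.08 to DMPT and −1.16 ± 0.09 to p-toluidine, a difference of 0.79 (95% interval 0.55 to 1.02, adjusted p = 0.000455). Cyp3a23-3a1 had responses of −0.11 ± 0.09 and −0.79 ± 0.10, a difference of 0.68 (0.42 to 0.94, adjusted p = 0.0446). These genes are close copies, and their probe sets may read each other. Over 29 settings (the values as reported, other processing, and each single array left out) Cyp3a2 was called in 29, with adjusted p of at most 0.00893, and Cyp3a23-3a1 in 11, with adjusted p up to 0.140. Cyp3a23-3a1 was not called without DMPT arrays 2 or 4 at 120 mg/kg, DMPT vehicle array 1, 2, 3 or 4, p-toluidine arrays 1, 4 or 5 at 120 mg/kg, p-toluidine vehicle array 1, 3, 4 or 5, or the narrow arrays. Nor was it called with array medians subtracted (adjusted p = 0.0574), with array weights (0.0955), with only the arrays compared (0.0842) or with the replicate number as a block (0.140). The count of probe sets was 1 to 8 over the single arrays left out and 21 with only the 4 groups fitted.

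For the other large changes the difference was not called, which does not show that the responses were alike. For Gstp1 the difference was −0.50 (95% interval −1.49 to 0.49), for Nqo1 −0.10 (−0.66 to 0.45) and for Gstt3 0.04 (−0.52 to 0.61). Wide gaps stood beside wide intervals in other genes. Hamp had responses of −2.67 to DMPT and −0.15 to p-toluidine (difference −2.52, interval −4.02 to −1.02, adjusted p = 0.332), and Tfrc of 1.54 and 0.62 (0.93, interval 0.36 to 1.50, adjusted p = 0.347). Rps27l had responses of 1.58 and 0.43 (1.15, interval 0.67 to 1.63, adjusted p = 0.0986). Cyp2c11 had the smaller response to DMPT, −1.73 beside −3.61 to p-toluidine, as did Npas2 with −1.55 beside −2.67. Neither difference was called.

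**Figure D5:**
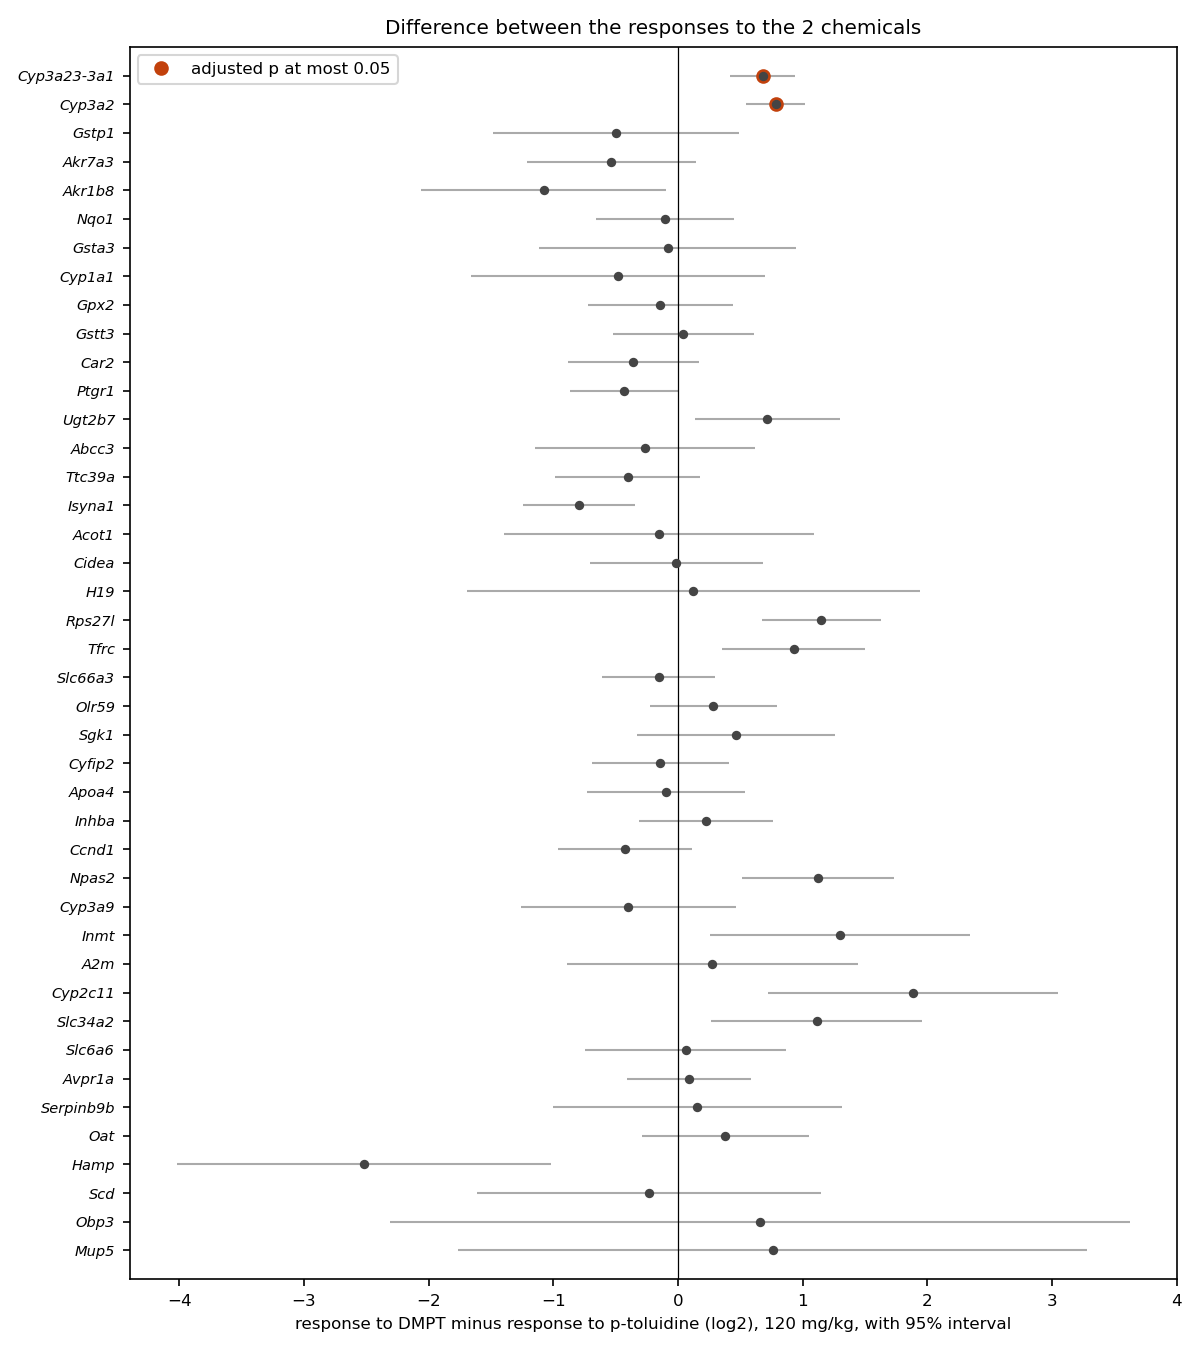
Difference between the log2 responses to DMPT and to p-toluidine at 120 mg/kg, with 95% intervals, for the 20 largest rises and 20 largest falls at DMPT 120 mg/kg and for Cyp3a2 and Cyp3a23-3a1, which are drawn as larger orange points. The intervals of most genes include 0, and Hamp lies furthest to the left at −2.52.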

How the data were processed

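RNA of 60 liver samples was hybridized to Affymetrix 3′ expression arrays. The deposited values are taken to be log2 expression per probe set made by RMA, which the submitters' processing notes name without version or settings. No header states the scale, which was inferred from values between 0.0507 and 13.9. Background correction, normalization and summary were therefore done upstream, and normalization compresses differences that all probe sets share.

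Of 31099 probe sets 57 controls were set aside. GEO's platform annotation names 1 gene for 20826 probe sets, several for 436 and none for 9780. Of the 20826, 20758 matched the RefSeq table (GRCr8) by gene ID. Each gene is read from its brightest 1-symbol probe set (mean of the 30 DMPT arrays), and 4525 genes had more than 1. Among called genes 589 had further probe sets: in 190 one was called the same way and in 10 the opposite way.

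Group means of the 30 DMPT arrays were fitted with limma 3.58.1 (R 4.3.3, lmFit and eBayes, 24 residual degrees of freedom) and p-values adjusted by Benjamini-Hochberg over all 31042 probe sets. The response difference used 12 group means over 60 arrays. Single array measures were tested by exact permutation. Data were simulated for the 120 mg/kg comparison (31042 probe sets), with independent noise for each probe set and 50 probe sets shifted per size. Of those shifted by 0.5, 82% were recovered, and of those shifted by 1, 100%, with 11 false calls. Variation that arrays share was not simulated, so these shares may not hold for the real arrays. The number of arrays limits the precision. No arrays held identical values.

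Named are the 20 largest called rises and falls, the 6 or fewer members per list that changed most, the 8 largest called differences of the other comparisons, and hepatocyte markers. Other genes are said to be named after their values were seen, except Krt19, Krt7, Hbb, Alas2 and Slc4a1, which are cell type markers. The members and lists were chosen with earlier results of these data known. Alternatives were equal quantiles, subtracted medians, a filter on dim probe sets, fewer arrays, array weights, another prior, the replicate number as a block, and leaving out narrow or single arrays.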

Additional observations from a re-analysis of the deposited data

Results flagged for a closer look

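Single arrays that stood apart from the other 4 of their group were looked for in the 141 genes named, which gives 282 groups. By Dixon's criterion 15 groups held such an array (5.32%), where chance gives about 1 in 20 groups. They fell on 6 of the 10 arrays, with 3 each on dosed arrays 1 and 2 and vehicle array 1 and 2 each on dosed array 5 and vehicle arrays 2 and 3.

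Dosed array 1 was low for Cyp2e1 (12.44), Ndufv3 (8.41) and the sulfotransferase Sult1c3 (8.72). Dosed array 2 was low for the aryl hydrocarbon receptor Ahr (3.00), for cyclin D1, Ccnd1 (5.85), and for Pck2 (6.00). Dosed array 5 was high for Mup5 (4.00) and low for Xrcc5 (6.30). Vehicle array 1 was low for the division genes Melk (2.73) and Gins1 (2.72) and for Fgf1 (3.54). Vehicle array 2 was low for Car2 (5.90) and high for the taurine carrier Slc6a6 (7.83). Vehicle array 3 was high for the female-specific Cyp2c12 (10.08) and low for Hemgn (1.63). Of these genes only Ahr, Cyp2c12 and Cyp2e1 were not called at 120 mg/kg.

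The responses to DMPT and p-toluidine at 120 mg/kg differed by the test of the difference itself (limma) in Cyp3a2, by 0.79 on the log2 scale, and in Cyp3a23-3a1, by 0.68. Cyp3a2 was called in 29 of 29 settings and Cyp3a23-3a1 in 11. All 5 DMPT arrays of Cyp3a2 read between 11.71 and 12.07, beside 12.07 to 12.39 on its vehicle arrays, so the groups just met.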

How the results depend on the processing

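The count of 3043 probe sets at 120 mg/kg stayed within 1.5 times under every alternative run: 2253 to 2983 over the single arrays left out, 2459 without the narrow arrays, 2568 with only the 10 arrays fitted, 2881 with medians subtracted, 3331 with equal quantiles and 3435 with array weights. Labels of replicates do not pair the arrays: correlations of same-numbered arrays ran from −0.084 to 0.042, and with the replicate block 2980 probe sets were called. The block cost no named gene its call at 120 mg/kg.

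Of 126 called genes named 120 kept the call in every alternative and single array left out. The exceptions were Acot1, Asgr1, Mcm6, Mki67, Obp3 and Rpl30. Uncalled genes with changes near 0 took the other sign: Alb at −0.0033 with medians subtracted and −0.0024 without the narrow arrays, and Cyp2e1 at −0.0069, −0.0079 without the narrow arrays and −0.00099 with array weights (−0.028 to 0.025 over single arrays). Krt19 was at −0.13 without the narrow arrays (−0.062 to 0.18 over single arrays), and Ttr at −0.029 with equal quantiles. Nfe2l2 was at 0.045 with array weights, 0.017 with equal quantiles and 0.12 without the narrow arrays (−0.073 to 0.084 over single arrays). The cause was not tested.

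The step from 60 to 120 mg/kg gave 14 probe sets (11 higher, 3 lower) with only the arrays compared, 25 (20 and 5) without the narrow arrays, and 22 lower ones with array weights or without dim probe sets. Over single arrays it gave 24 to 77, 16 to 61 higher and 6 to 18 lower. The response difference gave 1 probe set, higher, with medians subtracted, array weights, the replicate block or no narrow arrays, and 21 (17 higher, 4 lower) with only the arrays compared. Over single arrays it gave 1 to 8, with 1 to 7 higher and 0 to 4 lower. The difference in array spread ran from −0.098 to −0.025 over single arrays. Of 112 list counts, 23 moved over 1.5 times without vehicle array 1 and 3 with the replicate block. The single-array and block counts of lists were added after seeing the data.

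Limits: 5 arrays a group, no map from arrays to animals, and an inferred scale. Dim genes near the bottom of the scale have no order, and arrays give no depth.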
